A study of Homo sapiens with 4 samples.

Results

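The 10 glycolytic enzyme genes described here, HK1, HK2, GPI, PFKP, ALDOA, TPI1, GAPDH, PGK1, PKM and LDHA, were chosen by name from a table of 20913 genes, and each had a row in it. RNA-seq compared T98G cells that overexpressed LGP2 (2 libraries, replicates 2 and 3) with T98G cells that carried a vector (2 libraries, replicates 2 and 3). T98G is an established human glioblastoma line, listed as astroblastoma in the labels, and LGP2 is the RNA sensor encoded by DHX58. The column headers of the overexpressing libraries carry the word flag. The labels name neither the vector's promoter nor a clone. Whether the replicates are separate cultures is not stated, and the p-values below describe the spread between libraries, which may be technical. The growth text mentions 293T cells, whereas the titles give T98G.

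Glycolysis turns glucose into pyruvate in the cytosol and yields ATP and NADH, and lactate dehydrogenase then reduces pyruvate to lactate and returns NAD+. Hexokinases and phosphofructokinases catalyse the committed, regulated early steps, and GAPDH and PGK1 act at the steps where NADH and the first ATP are made. Many gliomas keep a high glycolytic rate in the presence of oxygen, and most glycolytic genes are known targets of HIF-1 and MYC.

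The library labels were checked on DHX58 and on markers before the enzymes were examined. DHX58 had 542 and 523 CPM (counts scaled to library totals) in the LGP2 libraries, against 6.20 and 9.40 CPM in the vector libraries, and it rose by 6.09 on the log2 scale (SE 0.24; edgeR's quasi-likelihood test gave an adjusted p of 1.91e-06). Library totals ran from 56033379 to 63932198 counts, and mitochondrial genes took between 3.72% and 4.50% of them. Of 12 astroglial and glioma markers, 8 had a row. Vimentin (VIM) and CD44 were abundant, with VIM at 3350 and 2840 CPM in the LGP2 libraries and at 4030 and 3090 CPM in the vector libraries. The astrocyte filament gene GFAP had under 1 CPM everywhere, at 0.693 and 0.507 CPM in the LGP2 libraries and 0.345 and 0.379 CPM in the vector libraries. SOX9 ran from 44.4 to 59.4 CPM, and OLIG2 and SLC1A3 lay between 1.6 and 5.91 CPM. NES and ALDH1L1 had under 1 CPM in every library. S100B, SOX2, AQP4 and FABP7 had no row. Among the markers of microglia, endothelial cells, neurons and oligodendrocytes, CD68 reached 89.7 and 80.0 CPM in the LGP2 libraries and 114 and 92.9 CPM in the vector libraries, and no other one passed 10 CPM.

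In GENCODE release 29 on GRCh38, the hexokinase genes lie at chr10:69269984-69401884 (HK1) and chr2:74833981-74893359 (HK2). The upper part of the pathway continues with GPI at chr19:34359480-34402413, PFKP at chr10:3066333-3137712, ALDOA at chr16:30064164-30070457 and TPI1 at chr12:6867119-6870948. The lower part holds GAPDH at chr12:6533927-6538374, PGK1 at chrX:77910739-78129296, PKM at chr15:72199029-72231822 on the minus strand, and LDHA at chr11:18394388-18408425. All but PKM are on the plus strand, and TPI1 and GAPDH lie on the same chromosome arm.

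Promoter sequence was examined because ACGTG is the core of the hypoxia response element bound by HIF-1, and CACGTG is the E-box bound by MYC and related factors. ACGTG was searched on both strands in the 250 bases before each RefSeq start (GRCh38.p14), which counts each CACGTG as 2 matches. It occurred in 18.5% of 35116 windows, and at 28.3% of the 11375 tested genes with a window. It was found at 8 of the 10 enzyme genes, HK1 and PKM being the ones without it. A gene was counted if any of its windows held a match, and the number of windows differed between genes. CACGTG occurred in 6.34% of windows and at 11% of tested genes, and at HK2, ALDOA, GAPDH and LDHA among the enzymes. The stretches with at least 2 ACGTG matches outside annotated exons are shown on the plus strand, with the matches in capitals.
HK2, chr2:74834920-74835169: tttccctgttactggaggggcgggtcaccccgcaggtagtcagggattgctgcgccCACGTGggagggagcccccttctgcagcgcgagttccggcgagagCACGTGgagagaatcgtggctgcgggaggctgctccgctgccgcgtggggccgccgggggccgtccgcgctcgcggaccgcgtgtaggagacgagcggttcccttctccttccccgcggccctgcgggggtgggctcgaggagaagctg
GAPDH, chr12:6535142-6535263: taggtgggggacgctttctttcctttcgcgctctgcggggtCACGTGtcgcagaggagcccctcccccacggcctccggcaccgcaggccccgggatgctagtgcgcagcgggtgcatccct
PGK1, chrX:78103998-78104173: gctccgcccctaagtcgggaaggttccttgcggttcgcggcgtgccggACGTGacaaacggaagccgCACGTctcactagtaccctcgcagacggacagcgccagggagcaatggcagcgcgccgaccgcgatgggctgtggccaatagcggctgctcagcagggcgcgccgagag
LDHA, chr11:18394313-18394387: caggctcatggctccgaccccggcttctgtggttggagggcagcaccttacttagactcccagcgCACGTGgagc
The stretch shown holds 2 E-boxes at HK2 and 1 each at GAPDH and LDHA, and at PGK1 it holds ACGTG once on each strand. The whole 250-base window of LDHA, part of which is annotated as exon, holds 2 E-boxes. The stretches at HK2, GAPDH and PGK1 lie within the annotated extent of their gene but outside its exons, and the one at LDHA lies directly before the gene. A match describes these letters and is not evidence that a factor bound there.

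None of the 10 enzyme transcripts passed the test between LGP2-overexpressing and vector cells. Their log2 fold changes ran from -0.19 for GPI to 0.18 for PGK1, with 3 above 0 and 7 below 0. PGK1 and LDHA had the highest values and GPI and PFKP the lowest. LDHA was the single enzyme whose LGP2 libraries both lay above both vector libraries. For the other 9, the ranges of the groups overlapped.

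The test was edgeR's quasi-likelihood test with Benjamini-Hochberg adjustment over 17863 genes, and the enzymes' adjusted p-values lay between 0.998 and 0.999. It called 3 genes, or 0.0168% of those tested, all of them higher in LGP2 libraries (0.0168% higher, 0% lower). At an unadjusted p under 0.05 it passed 4.46% of all genes and 0 of the 10 enzymes, and DESeq2's Wald test and limma-voom also called 0 of 10. The median log2 fold change was -0.06 over the enzymes and -0.01 over all genes, of which 48.7% lay above 0. In bulk RNA, fewer expressing cells and less RNA per cell cannot be told apart.

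**Figure D1:**
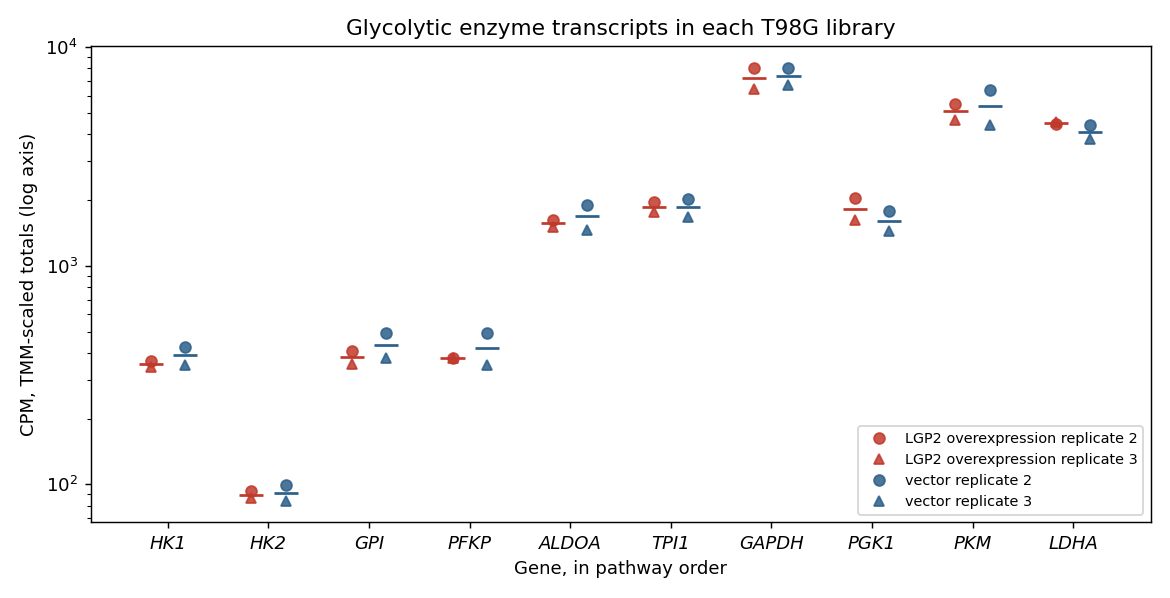
CPM (log axis, TMM-scaled library totals) of the 10 enzyme genes in pathway order, with LGP2 libraries in red left of vector libraries in blue, replicate 2 as circles, replicate 3 as triangles and group means as bars. The group ranges overlap for every gene except LDHA, whose LGP2 libraries at 4470 and 4544 CPM lie above the vector libraries at 4393 and 3801 CPM.

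Hexokinases phosphorylate glucose and so trap it in the cell. HK1, the form expressed in most tissues, had 365 and 344 CPM in the LGP2 libraries, against 426 and 351 CPM in the vector libraries. Vector replicate 2 was the high library, and the other 3 lay within a narrow range. The log2 fold change of HK1 was -0.13 (SE 0.16, 95% interval -0.49 to 0.22). HK2, the inducible form often raised in tumours, had 93.4 and 86.2 CPM in LGP2 libraries and 98.9 and 84.3 CPM in vector libraries, so that both LGP2 values fell between the vector values. Its log2 fold change was -0.03 (SE 0.14, 95% interval -0.35 to 0.29).

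GPI converts glucose 6-phosphate to fructose 6-phosphate, which phosphofructokinase then commits to glycolysis. GPI had 406 and 356 CPM in the LGP2 libraries, against 493 and 378 CPM in the vector libraries, with vector replicate 2 highest and LGP2 replicate 3 lowest. Its log2 fold change of -0.19 was the lowest of the 10 (SE 0.18, 95% interval -0.58 to 0.20). PFKP, the platelet-type phosphofructokinase, had 378.0 and 378.5 CPM in the LGP2 libraries, against 493 and 353 CPM in the vector libraries. The LGP2 pair was thus nearly equal, while the vector pair differed by 0.48 on the log2 scale, more than the fold change of -0.16 (SE 0.18, 95% interval -0.56 to 0.24).

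Aldolase splits fructose 1,6-bisphosphate, and triose phosphate isomerase interconverts the products. ALDOA had 1626 and 1497 CPM in LGP2 libraries, against 1900 and 1465 CPM in vector libraries, and again vector replicate 2 stood highest and vector replicate 3 lowest. The log2 fold change of ALDOA was -0.11 (SE 0.20, 95% interval -0.54 to 0.33). TPI1 had 1968 and 1754 CPM in LGP2 libraries, against 2027 and 1672 CPM in vector libraries, which placed the LGP2 pair inside the vector pair. Its log2 fold change was 0.01 (SE 0.19, 95% interval -0.42 to 0.43).

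GAPDH, which reduces NAD+ while it oxidises glyceraldehyde 3-phosphate, had 7999 and 6464 CPM in the LGP2 libraries and 8066 and 6736 CPM in the vector libraries. In each group, replicate 2 was the higher one. Its log2 fold change was -0.03 (SE 0.23, 95% interval -0.54 to 0.47). PGK1, which makes the first ATP of the pathway, had 2033 and 1618 CPM in LGP2 libraries, against 1772 and 1447 CPM in vector libraries. LGP2 replicate 2 was the highest library and vector replicate 3 the lowest, and LGP2 replicate 3 lay below vector replicate 2. PGK1 had the highest log2 fold change of the 10, 0.18 (SE 0.20, 95% interval -0.26 to 0.63).

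PKM, the pyruvate kinase gene whose splicing gives the M1 and M2 forms, had 5511 and 4648 CPM in LGP2 libraries, against 6339 and 4385 CPM in vector libraries. Gene-level counts do not separate the spliced forms. The vector pair of PKM differed by 0.53 on the log2 scale, the widest gap between replicates among the 10, and its log2 fold change was -0.08 (SE 0.24, 95% interval -0.61 to 0.45). LDHA, the lactate dehydrogenase subunit that predominates in glycolytic tissue, had 4470 and 4544 CPM in LGP2 libraries, against 4393 and 3801 CPM in vector libraries. Its groups did not overlap, which held for 33.2% of all tested genes (16.7% with LGP2 higher, 16.5% with LGP2 lower) and for 1 of the 10 enzymes. The gap between LGP2 replicate 2 and vector replicate 2 was small, and LDHA had a log2 fold change of 0.14 (SE 0.20, 95% interval -0.31 to 0.59).

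**Figure D2:**
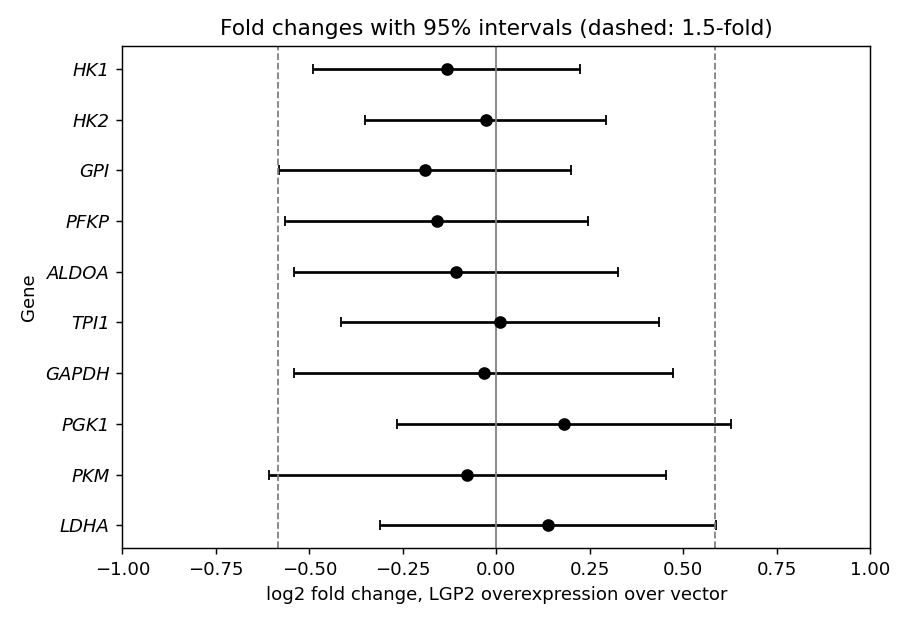
Log2 fold change of each enzyme gene, LGP2 overexpression over vector, with its 95% interval from edgeR's quasi-likelihood fit; the dashed lines mark a 1.5-fold change either way. Every interval holds 0, and those of PGK1, PKM and LDHA cross a dashed line.

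The intervals show how large a change these libraries leave room for. All 10 of them excluded a 2-fold change in either direction, as did those of 61.1% of tested genes. A 1.5-fold change was excluded for 7 of 10, against 34.8% of tested genes, a share not matched for abundance. GPI passed narrowly, its interval reaching 0.668 of the vector level. With no filter the SE of GAPDH was 0.294, against 0.228 in the main fit, and intervals were not computed for that setting. For PGK1 the interval reached 1.55-fold higher, for LDHA 1.502-fold higher, and for PKM 0.656 of the vector level, so changes of that size were not excluded.

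Between the vector replicates the enzymes moved in the same direction, and their mean profile did not separate the groups. Vector replicate 2 was above vector replicate 3 for 10 of 10 enzymes, which held for 48.7% of all genes, a share not matched for abundance. It also held for 9 of 12 other isoenzymes, 6 of 7 pentose phosphate genes and 7 of 10 glycogen genes, and the abundant VIM followed the same order. Other related lists were closer to all genes, with 7 of 13 transporter genes, 4 of 7 serine and glycerol genes and 10 of 20 hypoxia genes. The order held for 4 of 6 regulators, 2 of 2 gluconeogenesis genes and 5 of 14 genes for pyruvate entry into mitochondria. LGP2 replicate 2 was above LGP2 replicate 3 for 8 of 10, the exceptions being PFKP and LDHA, and for 49.2% of all genes. The mean profile, as log2 CPM around each gene's own mean, was 0.06 and -0.09 in the LGP2 libraries, against 0.18 and -0.15 in the vector libraries. Vector replicate 2 therefore stood highest and vector replicate 3 lowest, with the LGP2 libraries between them. Vector replicate 2 also had the lowest scaling factor, 0.951, the others lying between 1.00 and 1.03. Without that factor, the enzymes took 2.47% of all counts in vector replicate 2 and 2.50% in LGP2 replicate 2. Which library stood highest thus depended on the scaling. On plain library totals, vector replicate 2 still lay above vector replicate 3 for each enzyme, as with GAPDH at 7670 against 6859 CPM.

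**Figure D3:**
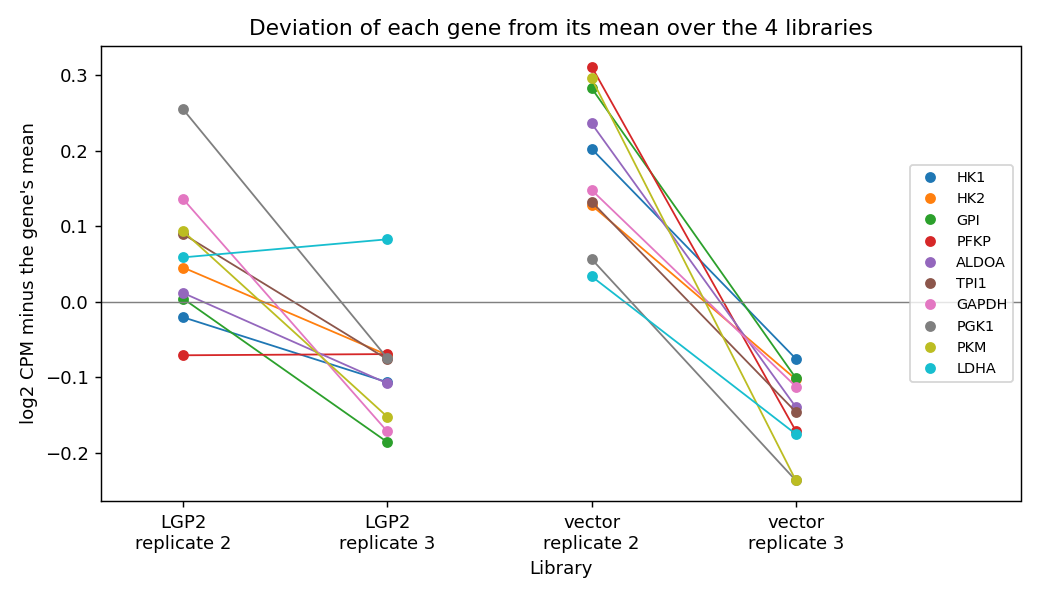
Deviation of each enzyme's log2 CPM from its own mean over the 4 libraries, with LGP2 libraries left of vector libraries and lines joining the replicates of a group. All 10 lines fall between vector replicates 2 and 3, and 8 of 10 fall between LGP2 replicates 2 and 3.

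The direction of most enzymes depended on which libraries were used. Without LGP2 replicate 2, 2 log2 fold changes lay above 0 and 8 below 0. Leaving out LGP2 replicate 3 put 6 above 0 and 4 below 0. Without vector replicate 2, all 10 log2 fold changes lay above 0. Without vector replicate 3, 2 lay above 0 and 8 below 0. No enzyme was called under either, and PGK1 and LDHA were the ones that stayed above 0 with each library left out in turn. On plain library totals, 5 enzymes lay above 0 and 5 below 0, HK2 (0.02) and GAPDH (0.015) being the ones that changed sign.

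The summed level of the 10 enzymes was 24849 and 21691 CPM in the LGP2 libraries, against 26007 and 20672 CPM in the vector libraries. It averaged 23270 ± 2233 CPM in LGP2 libraries and 23340 ± 3772 CPM in vector libraries (SD, n = 2 each), a log2 ratio of -0.0043. An exact two-sided permutation test gave p = 1.0, and 0.333 is the smallest value that 2 libraries a group allow. The enzymes took 2.50% and 2.23% of all counts in LGP2 libraries and 2.47% and 2.10% in vector libraries. The shares of the groups overlapped.

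Ratios between enzymes within a library do not depend on how the library is scaled. Of the 45 pairs, 21 had log2 ratios that did not overlap between groups. Over all pairs of the 3942 protein-coding genes that averaged 50 CPM or more this held for 32%. Pairs with PGK1 accounted for 8 of the 21, its ratio to LDHA being the one that overlapped, and pairs with GPI for 7. The pair of GPI and PGK1 is counted in both. These ratios were singled out after their values were seen and carry no test.

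The log2 ratio of GAPDH to PGK1, the neighbouring steps around the first ATP, was 1.98 and 2.00 in LGP2 libraries, against 2.19 and 2.22 in vector libraries. The difference of -0.22 was larger than the 0.033 between replicates. For GPI to PGK1 the log2 ratio was -2.32 and -2.18 in LGP2 libraries and -1.85 and -1.94 in vector libraries, a difference of -0.36, the largest of the 45. The log2 ratio of HK1 to HK2 was 1.97 and 2.00 in LGP2 libraries, against 2.11 and 2.06 in vector libraries. PGK1 was thus higher relative to GAPDH and to GPI in both LGP2 libraries, and HK1 lower relative to HK2, by amounts well under 1.5-fold.

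**Figure D4:**
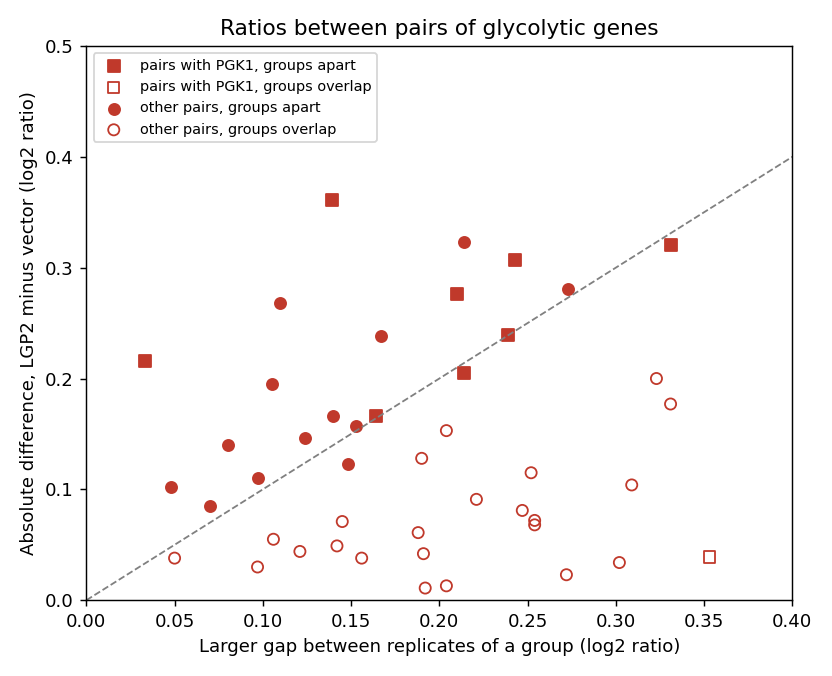
Each point is 1 of the 45 pairs of enzyme genes; the vertical axis is the absolute difference between the mean log2 ratio of LGP2 and vector libraries, and the horizontal axis the larger gap between replicates of a group. Of the 9 pairs with PGK1 (squares), 8 are filled, which marks groups that do not overlap, and most filled points lie above the dashed line where difference and gap are equal.

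Levels of different enzymes were compared per length, as CPM per kb of all exons in GENCODE 29. GAPDH was the highest, at 2426 ± 364 CPM per kb in LGP2 libraries and 2483 ± 315 CPM per kb in vector libraries (SD, n = 2 each). LDHA, TPI1 and PKM followed, with ranges over the 4 libraries of 612 to 732, 619 to 751 and 512 to 740 CPM per kb. These ranges overlap, so the order among LDHA, TPI1 and PKM is not settled. Below them came ALDOA at 374 to 485 CPM per kb and PGK1 at 262 to 369 CPM per kb, which did not overlap.

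The genes of the first steps were far lower. PFKP ran from 72.9 to 102 CPM per kb, HK1 from 54.6 to 67.7, GPI from 33.4 to 46.2 and HK2 from 13.9 to 16.3, with no overlap between neighbours. The enzymes after aldolase therefore had more transcript per length than those before it. With the shorter exons of the GENCODE basic set, PKM stood at 1534 CPM per kb in LGP2 libraries and 1619 in vector libraries, and LDHA at 1518 CPM per kb in LGP2 libraries and 1380 in vector libraries. GPI then stood above HK1, and TPI1, at 856.5 CPM per kb in LGP2 libraries and 851 in vector libraries, stood below PKM and LDHA. The places of PKM, LDHA, TPI1, GPI and HK1 in the order depend on which transcripts are taken as expressed. GAPDH stayed highest and HK2 lowest.

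**Figure D5:**
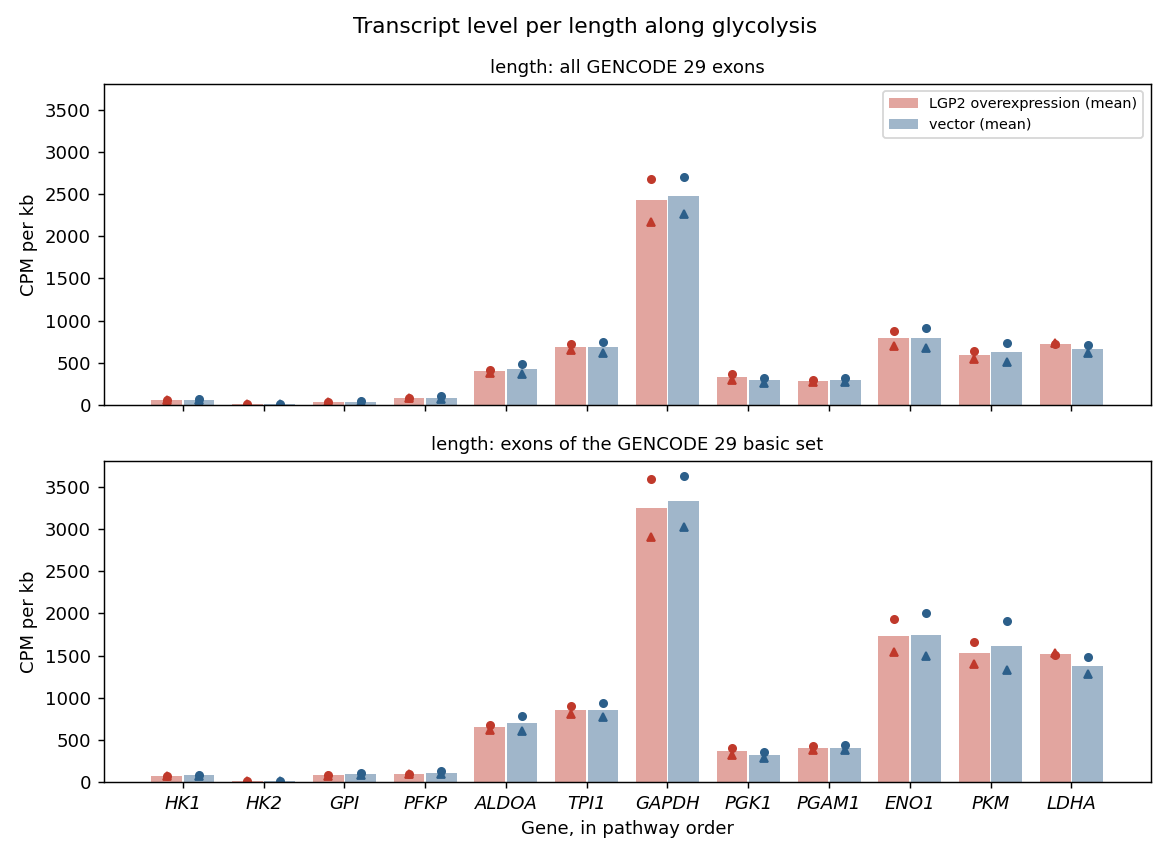
Transcript level per kb of exon (CPM per kb) along glycolysis, over all GENCODE 29 exons above and over the basic set below, as group means (LGP2 bars in red left of vector bars in blue) with replicate 2 as circles and replicate 3 as triangles. PGAM1 and ENO1 fill the steps between PGK1 and PKM; GAPDH is highest and HK2 lowest in both panels.

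Several steps are shared with isoenzymes, whose balance was read per length of all exons. HK1 made up 78.1% and 78.3% of the hexokinase transcripts in LGP2 libraries, against 79.9% and 79.3% in vector libraries, with HK2 at 20.8% and 20.4% in LGP2 libraries and 19.3% and 19.8% in vector libraries. PFKP made up 68.3% and 69.5% of phosphofructokinase in LGP2 libraries and 72.1% and 66.3% in vector libraries, the rest being PFKL and PFKM. This share depends on the lengths used. With the GENCODE basic set, PFKP made up 54.9% and 56.6% in LGP2 libraries and 58.7% and 51.9% in vector libraries. Aldolase was almost wholly ALDOA, with ALDOC at no more than 0.0766% in any library. Among the lactate dehydrogenase subunits, LDHA made up 65.2% and 61.6% in LGP2 libraries and 59.3% and 58.9% in vector libraries, the remainder being LDHB, the subunit that predominates in heart. On the log2 scale the count ratio of LDHA to LDHB was 1.96 and 1.74 in LGP2 libraries, against 1.60 and 1.58 in vector libraries. The groups did not overlap, but the LGP2 replicates differed by more than the gap to the nearest vector library, and the ratio was picked after its values were seen.

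The rest of the pathway was read from lists of related genes, and none of the 91 tested genes in them was called. Among 12 tested isoenzymes, 5 lay above 0 and 7 below 0. ENO1, the main enolase, was the most abundant of them, at 4644 and 3706 CPM in LGP2 libraries and 4825 and 3588 CPM in vector libraries, and repeated the pattern of the 10 enzymes. PFKL, the liver-type phosphofructokinase, had 161 and 145 CPM in LGP2 libraries, against 189 and 179 CPM in vector libraries, without overlap (log2 fold change -0.27, SE 0.14, adjusted p = 0.998 by edgeR).

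Of 13 tested glucose and lactate transporter genes, 9 lay above 0 and 4 below 0. SLC16A3, which exports lactate, had 408 and 326 CPM in LGP2 libraries, against 341 and 320 CPM in vector libraries, and the groups overlapped. EMB encodes embigin, a partner of monocarboxylate transporters. It had 39 and 68 counts in the LGP2 libraries, against 0 in both vector libraries, at least 17.6-fold higher on a floor of 3 counts per vector library. Its adjusted p was 0.41 by edgeR and 0.00566 by DESeq2's Wald test. EMB passed the filter only through its LGP2 libraries, so neither p-value lends support to a difference. At about 1 CPM it was close to the bottom of what was tested.

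TXNIP was the regulator with the largest difference. It encodes an arrestin-like protein that lowers glucose uptake and is induced by glucose, and it had 348 and 324 CPM in LGP2 libraries, against 667 and 526 CPM in vector libraries. Both LGP2 libraries lay well below both vector libraries. The log2 fold change was -0.83 (SE 0.17), and its adjusted p was 0.713 in edgeR and 0.000491 in DESeq2's Wald test. Among 6 tested regulators, 2 lay above 0 and 4 below 0.

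Genes at the exits of glycolysis were likewise uncalled. Of 14 genes for pyruvate entry into mitochondria, 7 lay above 0 and 7 below 0. PDHB, a subunit of pyruvate dehydrogenase, was the most abundant, at 164 ± 2.42 CPM in LGP2 libraries and 164 ± 9.78 CPM in vector libraries (SD, n = 2 each). DLD, the shared dihydrolipoamide dehydrogenase, had 78.6 and 107 CPM in LGP2 libraries, against 72.8 and 72.0 CPM in vector libraries. Among 7 pentose phosphate genes, 1 lay above 0 and 6 below 0. The transketolase gene TKT, the most abundant of them, had 1608 and 1326 CPM in LGP2 libraries and 1621 and 1611 CPM in vector libraries.

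The serine and glycerol branches had 4 tested genes above 0 and 3 below 0. GPD2, the mitochondrial glycerol 3-phosphate dehydrogenase, had 56.9 and 60.1 CPM in LGP2 libraries, against 31.4 and 49.8 CPM in vector libraries (log2 fold change 0.53, SE 0.21, adjusted p = 0.998 by edgeR). SHMT2, a mitochondrial serine hydroxymethyltransferase, averaged 207 ± 7.87 CPM in LGP2 libraries and 220 ± 32.4 CPM in vector libraries (SD, n = 2 each). The 2 tested gluconeogenesis genes, PCK2 and G6PC3, had log2 fold changes of -0.15 and 0.04. Glycogen genes split into 5 above 0 and 5 below 0. PYGB, the brain glycogen phosphorylase, averaged 463 ± 72.8 CPM in LGP2 libraries and 440 ± 52.1 CPM in vector libraries (SD, n = 2 each). PYGM, the muscle form, had 0 counts in both LGP2 libraries, against 31 and 23 in the vector libraries. That is at least 8.94-fold lower on the same floor of 3 counts per library, with an adjusted p of 0.895 by edgeR. PYGM passed the filter only through its vector libraries, so this p-value lends no support to a difference.

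Hypoxia factors and targets outside glycolysis comprised 20 tested genes, 13 of which lay above 0 and 7 below 0. Their median was 0.04 on the log2 scale. NDRG1, a stress-induced gene and the most abundant of them, had 1241 and 1021 CPM in LGP2 libraries, against 1539 and 1055 CPM in vector libraries. ADM, which encodes the vasodilator peptide adrenomedullin, had 130 and 106 CPM in LGP2 libraries, against 222 and 126 CPM in vector libraries. The groups of both genes overlapped, and vector replicate 2 was again the highest library. The log2 fold change of ADM was -0.56 (SE 0.23, adjusted p = 0.998 by edgeR).

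Without vector replicate 3, which leaves 1 vector library assumed to vary like the LGP2 pair, TXNIP, EMB, GPD2, ADM and the glucose transporter gene SLC2A12 were called, with adjusted p-values of 3.42e-06, 0.0045, 0.00109, 1.86e-05 and 0.0477 by edgeR. That fit called 432 of 18677 genes, or 2.31%. Without vector replicate 2, which gave 78 calls or 0.418%, TXNIP (adjusted p = 0.0169) and EMB (adjusted p = 0.0123) were called by edgeR. TXNIP, and EMB, which passed the filter only through its LGP2 libraries, were also called by DESeq2's Wald test, which called 22 genes or 0.123%. Neither was called with all 4 libraries in edgeR, with the LGP2 libraries left out in turn (adjusted p 0.988 without replicate 2 and 1.0 without replicate 3 for both genes), or by limma-voom (0.239 for TXNIP and 0.5 for EMB).

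Glycolytic genes have many processed pseudogenes, copies whose reads can be confused with those of the parent. The table held 15 rows named as pseudogenes of the 10 enzymes. The largest was TPI1P1, 98.1% identical to the coding sequence of TPI1, with 1683 and 2018 counts in LGP2 libraries and 1993 and 1708 in vector libraries, beside 101565 to 123234 counts of TPI1. GAPDHP1, 95.9% identical to GAPDH, had 1354 and 1192 counts in LGP2 libraries and 1560 and 1309 in vector libraries. TPI1P2 had 191 and 169 counts in LGP2 libraries, against 78 and 110 in vector libraries, and an adjusted p of 0.998. LDHAP4 had 871 and 949 counts in LGP2 libraries, against 216 and 831 in vector libraries, the low count being vector replicate 2.

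LDHAP4 is 95.7% identical to the LDHA coding sequence, and the longest run without a difference is 107 bases. Of all gap-free stretches of 75 bases, the one with the most differences is shown, with the differing bases in capitals. It runs from position 247 to 321 of the LDHA coding sequence and of the LDHAP4 transcript (GENCODE 29).
LDHA: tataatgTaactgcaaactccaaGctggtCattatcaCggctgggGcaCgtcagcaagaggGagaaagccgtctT
LDHAP4: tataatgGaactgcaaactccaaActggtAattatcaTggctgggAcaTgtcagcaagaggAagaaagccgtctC
The 2 copies differ at 8 of these 75 bases, whereas the whole alignment has 42 mismatches over 998 bases, so most stretches differ less. Adding the counts of all 15 pseudogenes to their parents left the signs of the 10 fold changes and the count of 0 calls as they were.

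The counter's use of strand is not given in the sources used here, so counts of enzymes that share exons with another gene are uncertain. ALDOA shares exons with AC093512.2, which had 7239 and 6358 counts in LGP2 libraries, against 9941 and 5784 in vector libraries. PGK1 shares annotated exons with ATP7A, which had 1135 and 1263 counts in LGP2 libraries and 654 and 977 in vector libraries. The antisense gene AC006064.4 at GAPDH had 0 and 13 counts in LGP2 libraries and 254 and 26 in vector libraries. These counts are lower than those of ALDOA, PGK1 and GAPDH. In vector replicate 2, AC093512.2 had 9941 counts beside 115504 of ALDOA. How many reads fell in shared exons, and how they were assigned, was not tested.

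By root-mean-square distance over the 4 libraries, the protein-coding genes most like the enzymes' mean profile were TRIR, HM13 and EMC8, at 0.00747, 0.0117 and 0.0126 on the log2 scale. The median over 3932 candidates that averaged 50 CPM or more was 0.136, and the enzymes themselves lay between 0.0304 (TPI1) and 0.124 (PGK1). The enzymes' distances are taken from a mean that includes them, which makes them smaller, so they cannot be compared with the candidates' median. The likeness rests on 4 libraries.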

How the data were processed

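Values are raw gene counts as the authors deposited them, 1 column for each of 4 T98G libraries; 0 other columns of per-sample values were in the table. The submitters' processing notes name the mouse build mm10, yet the gene symbols are human; aligner, counter, annotation and strand use are not given in the sources. Groups came from the labels' genotype field.

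Counts were tested with edgeR 4.0.16 in R 4.3.3 (TMM scaling, filterByExpr by group, quasi-likelihood test, two-sided, Benjamini-Hochberg adjustment over 17863 genes, threshold 0.05, no covariate); 3050 genes were filtered out, none of them an enzyme described here. CPM values use TMM-scaled totals, standard errors were derived from the F statistic and 95% intervals from the total degrees of freedom. The biological coefficient of variation was 25.9%. Intervals and floors cover no error beyond the model or counting. No pair of libraries agreed within sampling noise. The code was tested on simulated data.

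Of 20913 symbols, 19831 matched GENCODE 29 exactly and 461 by an older symbol. Promoters are from RefSeq, and pseudogenes were aligned with BLAST 2.17.0. Alternatives used DESeq2 1.42.0 and limma 3.58.1. The enzymes and the related lists were chosen with earlier results of these data known. Named were every enzyme, DHX58, the most abundant and the smallest-p gene of each list, pseudogene rows and the 3 genes nearest in profile; isoenzymes of a step, marker genes, exon partners and genes called under an alternative were named as well. A gene that this rule names is not reported here.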

Additional observations from a re-analysis of the deposited data

How the results depend on the processing

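No enzyme was called under any alternative, and the lowest adjusted p of an enzyme was 0.218, in edgeR without vector replicate 3. The count of all genes called was 3; it was 1 with no filter, 6 by limma-voom and 22 by DESeq2's Wald test, and it ran from 2 to 432 with 1 library left out, at 432 without vector replicate 3 and 78 without vector replicate 2. By list, DESeq2 called 1 transporter gene and 1 regulator; with 1 library left out, transporters ran from 0 to 2 and the regulators, the serine and glycerol branches and the hypoxia list each from 0 to 1. The summed level of the enzymes, a log2 ratio of -0.0043, was 0.046 on plain totals and ran from -0.1604 to 0.1708 with 1 library left out. Plain totals turned HK2 to 0.0206 and GAPDH to 0.015.

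Leaving out 1 library gave log2 fold changes of -0.2674 to 0.013 for HK1, -0.1412 to 0.0915 for HK2, -0.3725 to 0.0136 for GPI, -0.3832 to 0.1013 for PFKP and -0.285 to 0.0927 for ALDOA. The ranges were -0.1254 to 0.1551 for TPI1, -0.1962 to 0.1116 for GAPDH, 0.0069 to 0.3366 for PGK1, -0.3218 to 0.2124 for PKM and 0.0349 to 0.2461 for LDHA. The cause was not tested. Each of these fits leaves a group with 1 library, which is assumed to vary like the other group.

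The groups share the replicate numbers 2 and 3. Over all tested genes, the log2 differences between replicates 2 and 3 correlated at 0.025 between the groups. Among the 10 enzymes, replicate 2 was the higher one for 8 in LGP2 libraries and for 10 in vector libraries. Whether same-numbered libraries share a culture or batch is not stated and was not tested. With the replicate number as a block, edgeR called 8 genes and 0 enzymes, and neither TXNIP (adjusted p = 0.115) nor EMB (adjusted p = 0.234). Both the 2 libraries a group and, for genes with few reads such as EMB and PYGM, the depth limit these comparisons.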
